A study of Ovis aries with 48 samples.

Results

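Small nucleolar RNAs (snoRNAs) were measured in sheep fat, and 4 of the 694 listed were followed across depots and prenatal treatments. They are LOC114113393, placed inside EEF1B2, LOC114115930 inside RPL4, LOC114110211 inside TAF1D and LOC114115071 inside MATR3. The 4 were chosen by name, with results of the same libraries known. Among control sheep of the T cohort, LOC114113393 had been lower in epicardial fat and LOC114115930 higher in subcutaneous fat. Which contrast led to LOC114110211 and LOC114115071 is not known. LOC114110211 and LOC114115071 are therefore described without a test in all sheep. LOC114113393 and LOC114115930 are described without a test wherever these control libraries enter, and tested in prenatally testosterone-treated (prenatal T) sheep and in the BPA cohort. Whether those were also looked at in choosing them is not known, so that their p-values may be too small.

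Most vertebrate snoRNAs are cut out of introns of host genes, many of which encode ribosomal proteins, translation factors or nucleolar proteins. The mature snoRNA forms a protein complex in the nucleolus and guides ribose methylation or pseudouridylation of ribosomal RNA by base pairing. Its level depends on the transcription and splicing of the host and on how stable the complex is. EEF1B2 encodes a subunit of the exchange factor that recharges translation elongation factor eEF1A, and RPL4 a protein of the large ribosomal subunit. TAF1D encodes a subunit of the selectivity complex that brings RNA polymerase I to ribosomal RNA genes, and MATR3 the RNA-binding nuclear matrix protein matrin-3.

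Female sheep were fed a maintenance diet, and the treatments had been given to their mothers. In the T cohort, 8 sheep gave subcutaneous, visceral, epicardial and perirenal fat. Mothers of 4 of them (48, 185, 233 and 255) had received testosterone propionate, 100 mg intramuscularly 2 times per week from gestational day 30 to 90, and 4 (098, 131, 132 and 201) were controls. The BPA cohort comprised 8 further sheep with 2 depots each, subcutaneous and visceral. Mothers of 4 (910, 918, 977 and 984) had daily subcutaneous bisphenol A (0.5 mg/kg) over these gestational days, and mothers of 4 (902, 908, 924 and 928) had vehicle. Each of the 12 groups held 4 libraries, 48 in all, and the labels name no transgene or cell line. Adipocyte messenger RNAs are not analysed here, so the fat labels were not checked against adipocyte markers.

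The libraries held between 3201 and 35207 snoRNA reads (median 8129). Library numbers in the labels form an early set (up to 48) and a later set (81 and above). SnoRNAs made up 0.277% to 1.34% of the reads of 4 RNA classes in the 24 early libraries and 1.37% to 3.0% in the 24 later ones. The sets were spread unevenly. All epicardial controls were later, all subcutaneous and perirenal prenatal T libraries were early, 7 of the 8 subcutaneous libraries of the BPA cohort were later, and its visceral libraries were early in 3 controls and 1 BPA sheep. Levels below are normalised reads, which are recovered whole reads divided by a size factor common to all libraries of a cohort. They are not corrected for length, so the 4 snoRNAs are not ranked against each other, and the cohorts were scaled separately. Differences are in log2(normalised reads + 1), which understates changes of low levels. Replicates are different sheep, and in whole tissue fewer cells of a type and less RNA per cell cannot be told apart.

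LOC114113393, in EEF1B2, was the most abundant of the 4 by reads (23 to 239 per library). In control sheep of the T cohort its level was highest in perirenal fat and lowest in epicardial fat. Perirenal levels were 120 in sheep 098, 211 in 131, 130 in 132 and 258 in 201, and visceral levels were 84.3, 161, 83.2 and 139 in the same order. Subcutaneous levels were 72.0, 69.6, 75.8 and 57.0, and epicardial levels 45.8, 37.8, 36.4 and 38.5. Only perirenal and visceral fat overlapped among neighbours in this order, whose means were 180 ± 66.3, 117 ± 39.3, 68.6 ± 8.12 and 39.6 ± 4.21 (SD, n = 4). On the log2 scale perirenal fat lay 1.33 above and epicardial fat 1.45 below the mean of the other 3 depots, the latter being the difference that chose this snoRNA. As CPM of all 4 RNA classes (reads scaled to the library's whole total, which moves with the snoRNA share) perirenal fat was 0.30 above them, with the median snoRNA at -0.91. On that scale visceral fat had the highest mean, at 241 against 183 in perirenal fat. Markers of other cell types also differed among these depots, not in the order of LOC114113393. The mean of MIR143 was 37560 in subcutaneous and 28272 in visceral controls. MIR143, abundant in smooth muscle and the 1 of 2 listed markers found, lay between 37170 and 152539 CPM of microRNA reads in perirenal controls, between 13860 and 26496 in epicardial, 19567 and 45067 in visceral, and 21070 and 72626 in subcutaneous controls. MIR133, the 1 of 8 listed markers of striated muscle found, lay between 1295 and 6332 in epicardial controls and at most at 2573 elsewhere. Their part in the depot differences was not tested.

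**Figure D1:**
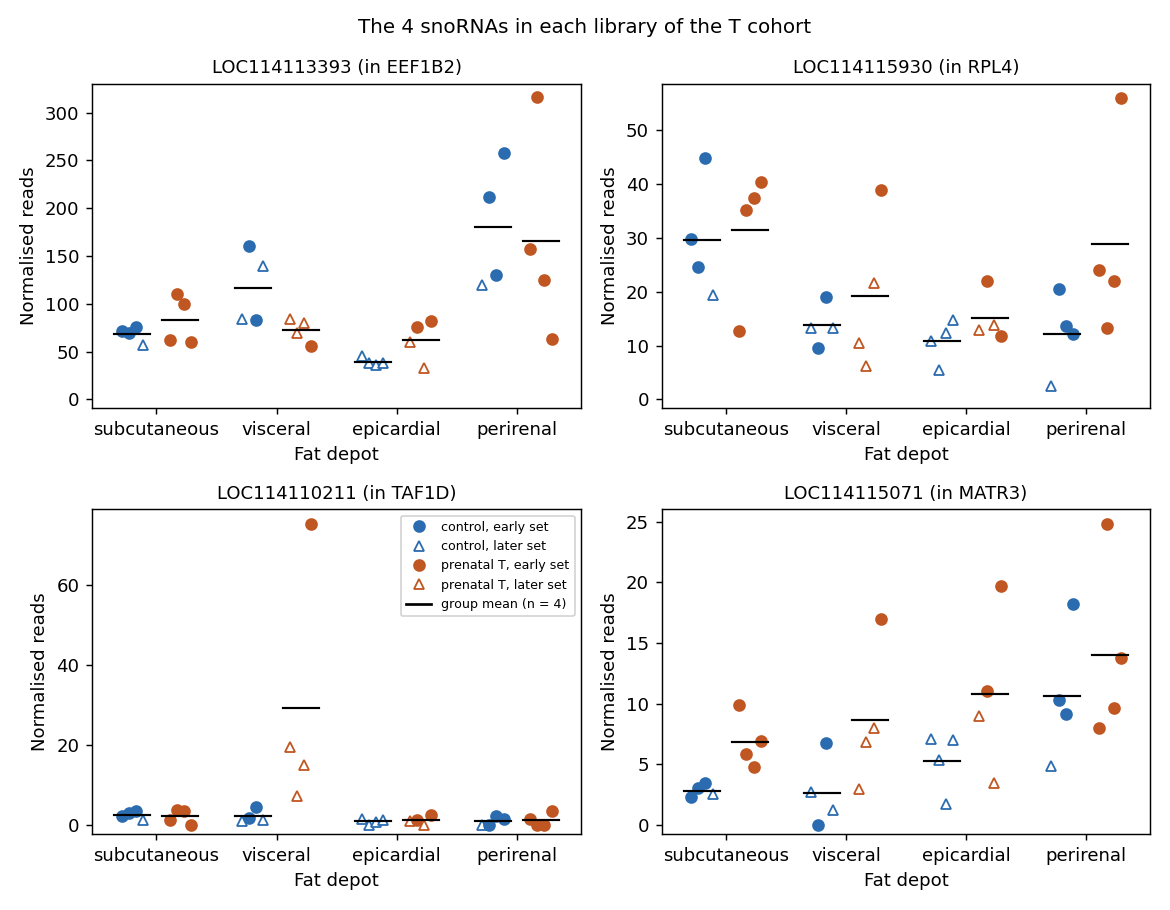
Normalised reads (linear axis) of the 4 snoRNAs in every library of the T cohort by fat depot, with 1 point per sheep, filled circles for early and open triangles for later libraries, and black lines at group means (n = 4). LOC114113393 was highest on average in perirenal fat in both arms, and LOC114110211 was above 7 normalised reads only in visceral fat of prenatal T sheep.

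In normalised reads, perirenal fat also held the most LOC114113393 on average in prenatal T sheep, the comparison in which this snoRNA can be tested. Perirenal levels were 158 in sheep 48, 316 in 185, 125 in 233 and 62.9 in 255. Levels of the 4 sheep in the same order were 62.3, 110, 100 and 60.1 in subcutaneous, 84.1, 69.7, 79.9 and 55.8 in visceral, and 59.7, 75.8, 33.0 and 81.5 in epicardial fat. In sheep 48, 185 and 233 perirenal fat stood above the other depots, whereas in sheep 255 it was below epicardial fat. Perirenal fat exceeded the mean of the other depots by 1.0 (SE 0.31, 95% interval 0.38 to 1.63, limma adjusted p = 0.0584), just short of the threshold of 0.05. In this contrast 2.89% of the 173 snoRNAs tested were called. MIR143 lay between 107027 and 175334 in these perirenal libraries and between 19377 and 153692 in the other depots, and its part was not tested.

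With sheep as a replicate block the difference was called (adjusted p = 0.0364). So it was without sheep 255 (1.35, adjusted p = 0.00852). The adjusted p lay between 0.00488 and 0.833 over 20 alternatives and was under 0.05 in 5. As CPM of 4 classes the difference was -0.10, where the median of all snoRNAs tested was -1.07. On that scale visceral fat had the highest mean (162), followed by subcutaneous (117) and perirenal fat (98.0). Measured from the median snoRNA, LOC114113393 lay 0.98 above it as CPM of 4 classes and 1.12 above it on the main scale. Taking off the median is a rescaling much like the main one, so these values are close by design and add no support. Within the early set alone the difference was 0.99. Beside all subcutaneous and perirenal libraries of these sheep, that set held 2 epicardial ones and 1 visceral one (sheep 255). Epicardial fat was 0.65 below the other depots (SE 0.31, adjusted p = 0.232), and only 0.13 below within the early set. Visceral and subcutaneous fat of prenatal T sheep differed from their other depots by -0.29 (adjusted p = 0.585) and -0.07 (adjusted p = 0.89). All neighbours in the order of the depot means overlapped.

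Visceral fat of the BPA cohort held more LOC114113393 than subcutaneous fat in every animal when measured in normalised reads. In controls 902, 908, 924 and 928 visceral levels were 97.6, 186, 152 and 146, and subcutaneous levels 68.1, 67.3, 34.3 and 49.4. BPA sheep 910, 918, 977 and 984 had visceral levels of 167, 202, 89 and 145, and subcutaneous levels of 34.9, 72.7, 42 and 59.5. The depots did not overlap: the lowest visceral library (89) was above the highest subcutaneous one (72.7). The summed MIR200 microRNAs of epithelium and mesothelium (3 of 6 listed markers found) were also higher in visceral fat, at 210 to 720 CPM against 31.8 to 157 in controls and at 212 to 430 against 28.9 to 332 in BPA sheep. Their part in the difference was not tested. In normalised reads, LOC114113393 was the 1 of 204 snoRNAs tested in this cohort (0.49%) whose 8 visceral libraries all lay above the 8 subcutaneous ones. Whether these libraries were looked at in choosing it is not known, so the share is a description. Visceral was above subcutaneous in each of the 8 sheep for 13 snoRNAs (6.37%).

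**Figure D2:**
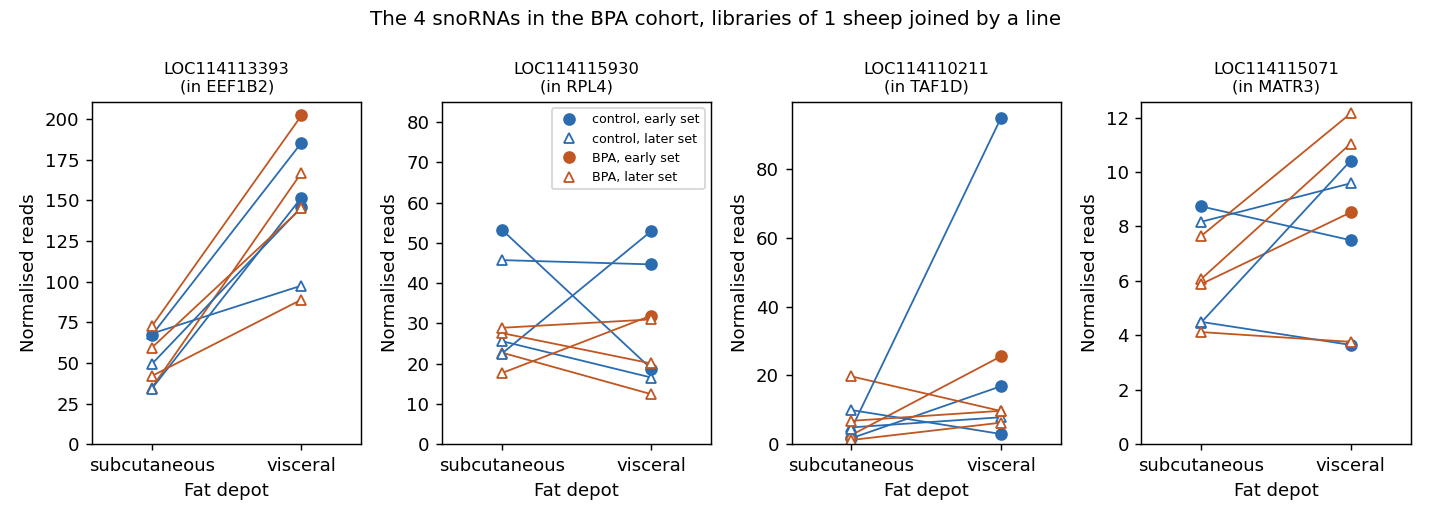
Normalised reads (linear axes, each from 0) of the 4 snoRNAs in subcutaneous and visceral fat of the BPA cohort, with a line for each of the 8 sheep. LOC114113393 rose from subcutaneous to visceral fat along all 8 lines, while the lines of the other 3 snoRNAs ran in both directions.

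The mean difference within sheep was 1.46 ± 0.549 (SD, n = 8 sheep, range 0.51 to 2.23). An exact two-sided sign-flip permutation test gave p = 0.0078, the smallest that 8 sheep allow, among 4 such tests made here. Over 13 alternatives the difference kept its sign, between 0.68 and 1.68, with exact permutation p from 0.0078 to 0.0156. In the fit across all snoRNAs, visceral exceeded subcutaneous fat by 1.41 in controls (SE 0.36, 95% interval 0.64 to 2.17, limma adjusted p = 0.094) and by 1.51 in BPA sheep (SE 0.36, 0.74 to 2.27, adjusted p = 0.134). Neither passed, and limma called 0 of 204 snoRNAs (0%) in each contrast. At an unadjusted p under 0.05 there were 58 in controls and 22 in BPA sheep, edgeR called 0 and 0, and DESeq2 called 35 and 1.

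With sheep as a replicate block the adjusted p was 0.045 in controls and 0.058 in BPA sheep. Without control sheep 908 that of the controls was 0.0396. Over all alternatives it lay between 0.00686 and 0.32 in controls (19 alternatives, 4 under 0.05) and between 0.00158 and 0.632 in BPA sheep (20 alternatives, 3 under 0.05). On the deposited values the differences were 0.64 and 0.72. There the median snoRNA was at -0.79 in controls and at -0.80 in BPA sheep, because the deposited scale was set per depot. The library sets differed between the depots. In the 4 sheep with both libraries of the later set, visceral exceeded subcutaneous fat in all 4, by 0.51 to 2.23 (mean 1.27). It did so by 1.45 in the 1 sheep with both early. In the 3 with subcutaneous later and visceral early it did so by 1.46 to 2.11 (mean 1.71). The part of library set was not tested. As CPM of 4 classes the depots overlapped, at 106.4 to 230 in visceral and 63.7 to 144 in subcutaneous fat.

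The control sheep of the T cohort had this order too, without overlap in normalised reads (lowest visceral library 83.2, highest subcutaneous 75.8), as did 4.05% of the snoRNAs tested. In prenatal T sheep the means were instead 72.4 ± 12.6 in visceral and 83.2 ± 25.7 in subcutaneous fat, with overlap. Differences between prenatal T and control sheep use the control libraries that chose the snoRNA and are given without a test. They were 0.23 in subcutaneous, -0.64 in visceral and -0.28 in perirenal fat. Epicardial fat of prenatal T sheep was 0.57 above that of controls, whose low level there had chosen the snoRNA, and 0.35 below it as CPM of 4 classes, with the median snoRNA at -0.84. Averaged over a sheep's 4 depots the difference was -0.03.

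LOC114115930, in RPL4, was chosen for its higher level in subcutaneous fat of control sheep. There it stood at 29.9 in sheep 098, 24.6 in 131, 44.8 in 132 and 19.4 in 201. Visceral levels in the same order were 13.3, 9.58, 19.1 and 13.3, epicardial levels 10.9, 5.39, 12.4 and 14.8, and perirenal levels 2.43, 20.6, 13.7 and 12.1. Subcutaneous fat (mean 29.7 ± 10.9, SD, n = 4) narrowly cleared visceral fat (13.8 ± 3.94), since the lowest subcutaneous library was at 19.4 and the highest visceral one at 19.1. The other depots overlapped, with perirenal fat at 12.2 ± 7.48 and epicardial fat at 10.9 ± 3.98.

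In prenatal T sheep the subcutaneous levels of LOC114115930 were 12.8, 35.1, 37.4 and 40.5 in sheep 48, 185, 233 and 255, and the perirenal levels 24, 13.3, 22 and 56.0. Visceral levels were 10.5, 6.29, 21.6 and 38.8, and epicardial levels 12.9, 22.1, 13.9 and 11.8. Every depot overlapped its neighbours, and sheep 255 was highest in subcutaneous, visceral and perirenal fat. Subcutaneous fat was 0.65 above the other depots (SE 0.43, 95% interval -0.23 to 1.53, limma adjusted p = 0.454). This fell short of the threshold in a contrast that called 6.36% of snoRNAs. The difference was 0.19 within the early set, whose 1 visceral library was that of sheep 255 (38.8). Perirenal, visceral and epicardial fat differed from their other depots by 0.40, -0.48 and -0.58 (adjusted p = 0.559, 0.49 and 0.585).

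Differences of LOC114115930 between prenatal T and control sheep rest on the control libraries that chose it and are given without a test. They were 0.02 in subcutaneous, 0.20 in visceral, 0.48 in epicardial and 1.26 in perirenal fat. The perirenal arms overlapped, as for all but 1.16% of snoRNAs in that direction. Control sheep 098, with 2 reads, was the only later library of the 8, and without that sheep the difference was 0.70. Over all snoRNAs, limma called 0 of 173 (0%) for prenatal T in each depot, with 0, 30, 15 and 9 at an unadjusted p under 0.05 in subcutaneous, visceral, epicardial and perirenal fat. EdgeR called 13 and DESeq2 20 in visceral fat, and both called 0 elsewhere. Averaged over depots, prenatal T sheep were 0.49 above control for LOC114115930.

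Visceral and subcutaneous fat overlapped for LOC114115930 in the BPA cohort. Control levels were 25.6, 53.3, 45.7 and 22.5 in subcutaneous and 16.6, 18.7, 44.7 and 52.9 in visceral fat of sheep 902, 908, 924 and 928. BPA sheep 910, 918, 977 and 984 had 22.8, 17.6, 27.6 and 28.9 in subcutaneous and 12.4, 31.9, 20.1 and 31.0 in visceral fat. Visceral was higher in 3 of 8 sheep (mean difference -0.16 ± 0.87, SD, exact permutation p = 0.625). By library set it was higher in 1 of the 4 sheep with both libraries later (mean -0.44), not in the 1 sheep with both early (-1.46), and in 2 of the 3 with subcutaneous later and visceral early (mean 0.66). The fitted differences were -0.22 in controls (95% interval -1.14 to 0.69, limma adjusted p = 0.766) and -0.09 in BPA sheep (-1.0 to 0.83, adjusted p = 0.945). On the deposited values the difference within sheep was -0.91 (exact permutation p = 0.0234), a scale on which the median snoRNA was itself at -0.79 and -0.80.

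LOC114110211, in TAF1D, was close to the detection limit in most of the T cohort and higher in visceral fat of prenatal T sheep. Its levels there were 19.5 in sheep 48, 7.34 in 185, 15.2 in 233 and 75.2 in 255, from 13, 14, 19 and 31 reads. Visceral fat of control sheep 098, 131, 132 and 201 had 1.17, 1.92, 4.50 and 1.21, from 3, 1, 4 and 1 reads. The lowest prenatal T library was thus above the highest control library. The 24 libraries of the other depots had at most 3.91, with 7 of them at 0, where 3 reads would have stood at 1.17 to 7.28 by library. Summed over the 4 libraries, 77 reads stood against 9. After scaling this is a ratio of 9.69 (exact 95% interval 4.85 to 22, for counting error only). That interval leaves out the spread between sheep, and this contrast may have chosen the snoRNA, so it is no test.

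The group means in visceral fat were 29.3 ± 31.0 in prenatal T and 2.20 ± 1.57 in control sheep (SD, n = 4). Without sheep 255 the prenatal T mean was 14 ± 6.17 (n = 3). LOC114110211 passed the minimum mean of 5 in this cohort (5.09 over 32 libraries) only through this group, and it did not pass on the deposited scale, as CPM of snoRNA reads or without sheep 48 or 255. Every visceral prenatal T library was also above every library of the other depots of these sheep, as for 1.16% of snoRNAs, and above every visceral control library, as for 5.2%. These contrasts may have chosen the snoRNA, and the first let it pass the minimum, so nothing is read from either share. In the other depots the summed reads were 8 against 15, 4 against 6 and 6 against 3 in subcutaneous, epicardial and perirenal fat, with ratios of 0.998 (exact 95% interval 0.366 to 2.51), 1.03 (0.214 to 4.35) and 1.77 (0.377 to 10.9). These intervals too are for counting error only.

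Marker microRNAs of other cell types varied among these visceral libraries. MIR143 was at 21623, 19377, 53373 and 153692 CPM of microRNA reads in prenatal T sheep 48, 185, 233 and 255, and between 19567 and 45067 in controls. Sheep 255 had the most MIR143 and the most LOC114110211, whereas control sheep 132, with 45067, had 4.50 normalised reads. In the BPA cohort sheep 928, highest in LOC114110211 (94.9), had 38312 and sheep 984, highest in MIR143 (75231), had 9.72. The summed MIR200 microRNAs of epithelium lay between 4.49 and 408 in prenatal T and between 39.4 and 208 in control sheep. MIR133 of striated muscle lay between 70.6 and 807 against 138 and 1591, and MIR150 of lymphocytes between 2303 and 5707 against 4459 and 6549. These are 1 of 8 listed markers of striated muscle, 1 of 2 of smooth muscle, 1 of 3 of lymphocytes and 3 of 6 of epithelium, while markers of red cells and endothelium were not analysed here. Their part in the result was not tested. Of these libraries 2 of 4 controls and 3 of 4 prenatal T were later. The 1 early prenatal T library was that of sheep 255, and the later ones were 2.44 lower on the log2 scale. The part of library set was not tested.

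TAF1D holds 8 listed snoRNAs, and a second one was high in the same libraries. LOC114110216, whose mean of 4.07 was below the minimum in the T cohort, had 6.01, 3.14, 16.8 and 36.4 in visceral fat of prenatal T sheep 48, 185, 233 and 255. In controls it had 2 reads in sheep 098 and 0 in the other 3, against 46 reads in prenatal T sheep. Its ratio was 26 (exact 95% interval 6.81 to 221, for counting error only). This interval too leaves out the spread between sheep and is no test. Over libraries the level of LOC114110216 followed that of LOC114110211 with r = 0.59 (T cohort, n = 32) and 0.83 (BPA cohort, n = 16), which share library depth. The neighbour LOC114110210 stood at 8.07 ± 4.44 in prenatal T and 14.7 ± 9.69 in control sheep (log2 difference -0.68, SE 0.49, limma adjusted p = 0.559). LOC114110209 stood at 36.7 ± 30.8 against 13.6 ± 5.76, with overlap (1.02, SE 0.65, adjusted p = 0.483). The other 4, at means below 3 normalised reads in both arms, were higher on average in prenatal T sheep for LOC114110220 (2.72 against 0.758), LOC114110215 (0.869 against 0.0975) and LOC114110212 (1.07 against 0.858) but not for LOC114110223 (0.262 against 0.303).

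Visceral fat of the BPA cohort held LOC114110211 at 7.84, 16.9, 2.98 and 94.9 in controls 902, 908, 924 and 928, and at 9.66, 25.6, 6.27 and 9.72 in BPA sheep 910, 918, 977 and 984. Control sheep 928, with 52 reads, stood far above the others. LOC114110216 was also highest there, at 29.2, and it lay between 5.62 and 11.3 in the other controls. Subcutaneous levels of LOC114110211 were 4.90, 1.75, 9.94 and 4.49 in controls and 19.7, 2.67, 1.24 and 6.80 in BPA sheep. The depots overlapped. Visceral was higher in 6 of 8 sheep (mean difference 1.25 ± 1.94, SD). It was 1.49 higher in controls (SE 0.83) and 1.01 higher in BPA sheep (SE 0.83), and without sheep 928 the control difference was 0.61.

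LOC114115071, in MATR3, gave few reads (0 to 20 per library), which limits what can be said of it. In control sheep 098, 131, 132 and 201 its levels were 4.85, 10.3, 9.12 and 18.2 in perirenal, 7.09, 5.39, 1.78 and 7.06 in epicardial, 2.30, 3.08, 3.44 and 2.59 in subcutaneous, and 2.73, 0, 6.75 and 1.21 in visceral fat. Perirenal fat had the highest mean (10.6 ± 5.58), 1.42 above the other depots on the log2 scale. It was 0.57 above them as CPM of 4 classes. Neighbouring depots overlapped.

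In prenatal T sheep 48, 185, 233 and 255 the levels of LOC114115071 were 8.0, 24.8, 9.64 and 13.8 in perirenal, 8.95, 11, 3.47 and 19.7 in epicardial, 3.0, 6.81, 7.99 and 17 in visceral, and 9.92, 5.86, 4.82 and 6.94 in subcutaneous fat. Perirenal fat again had the highest mean (14 ± 7.55). The prenatal T mean was above the control mean in all 4 depots. It was 6.88 ± 2.20 against 2.85 ± 0.509 in subcutaneous fat, the 1 depot without overlap (lowest prenatal T 4.82, highest control 3.44, on 23 and 18 reads in all). Such a separation was found in 0.578% of the snoRNAs tested, which is this snoRNA alone. The T cohort may have been used to choose it, so the share is a description.

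Visceral means of LOC114115071 were 8.70 ± 5.92 in prenatal T and 2.67 ± 2.94 in control sheep, and epicardial means 10.8 ± 6.75 and 5.33 ± 2.50. On the log2 scale the differences were 1.0 in subcutaneous, 1.58 in visceral, 0.82 in epicardial and 0.38 in perirenal fat. As CPM of 4 classes the last 2 were 0.00 and -0.08, with the median snoRNA at -0.84 and -0.57. The ratios of summed reads were 2.39 in subcutaneous (exact 95% interval 1.23 to 4.70), 2.59 in visceral (1.34 to 5.25), 1.74 in epicardial (1.05 to 2.89) and 1.23 in perirenal fat (0.77 to 1.99), for counting error only. These intervals leave out the spread between sheep, and the T cohort may have been used to choose the snoRNA, so they are no test. All 8 subcutaneous libraries but that of control sheep 201 were early. Epicardial controls were all later, at 1.78 to 7.09. The 2 later epicardial libraries of prenatal T sheep were at 8.95 and 3.47, on average 1.24 below the 2 early ones on the log2 scale. Later libraries were also 1.46 lower in visceral prenatal T sheep and 1.15 lower in perirenal controls, but 0.05 higher in visceral controls. The part of library set in these differences was not tested.

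In the BPA cohort the groups overlapped for LOC114115071. Subcutaneous levels were 8.17, 8.74, 4.47 and 4.49 in controls 902, 908, 924 and 928 and 6.07, 5.88, 4.12 and 7.65 in BPA sheep 910, 918, 977 and 984. Visceral levels were 9.59, 7.50, 10.4 and 3.65 in controls and 11, 8.52, 3.76 and 12.2 in BPA sheep. Visceral was higher in 5 of 8 sheep (mean difference 0.32 ± 0.48, SD). The sign depended on the scale: on deposited values the difference within sheep was -0.36, and as CPM of snoRNA reads it was 0.52. The fitted depot differences were 0.21 in controls and 0.43 in BPA sheep (SE 0.40 for both).

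BPA treatment gave no detectable change of LOC114113393 or LOC114115930 in either depot. The larger differences were those of LOC114115930, with subcutaneous fat 0.52 below control (SE 0.43, 95% interval -1.43 to 0.40, limma adjusted p = 0.996) and visceral fat 0.38 below it (-1.29 to 0.53, adjusted p = 0.638). For LOC114113393 the differences were -0.07 in subcutaneous (-0.83 to 0.69) and 0.03 in visceral fat (-0.73 to 0.79), with adjusted p = 0.996 and 0.98. Without a test, LOC114110211 differed by 0.11 and -0.36 and LOC114115071 by -0.08 and 0.15. Limma called 0 of 204 (0%) in both depots, 5 in subcutaneous and 25 in visceral fat had an unadjusted p under 0.05, and edgeR and DESeq2 called 0. Averaged over both depots, BPA and control sheep differed by -0.02 for LOC114113393, -0.45 for LOC114115930, -0.13 for LOC114110211 and 0.03 for LOC114115071. The exact permutation p-values of the first 2 were 0.971 and 0.171 (n = 4 and 4), where 0.0286 is the smallest possible.

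All 4 snoRNAs were on average lower in the later library set. In the 8 groups with both sets, later libraries were lower in 7 for LOC114113393 (mean difference -0.41), in 8 for LOC114115930 (-0.93), in 7 for LOC114110211 (-0.92) and in 6 for LOC114115071 (-0.51). Of the 164 snoRNAs tested in both cohorts, 20 were lower in all 8 groups and 35 higher, with a median difference of -0.07. The set differs from group to group as given above. Its share in depot and treatment differences cannot be told apart and was not tested. Fits with the set as a term, which take its effect from the groups of a cohort with both sets, are given as an alternative. In these the depot differences of LOC114113393 were 0.88 in perirenal fat of prenatal T sheep (adjusted p = 0.102), 1.10 between visceral and subcutaneous fat of BPA cohort controls (adjusted p = 0.0682) and 1.36 in BPA sheep (adjusted p = 0.0131). The prenatal T difference of LOC114115930 in perirenal fat was 1.04.

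**Figure D3:**
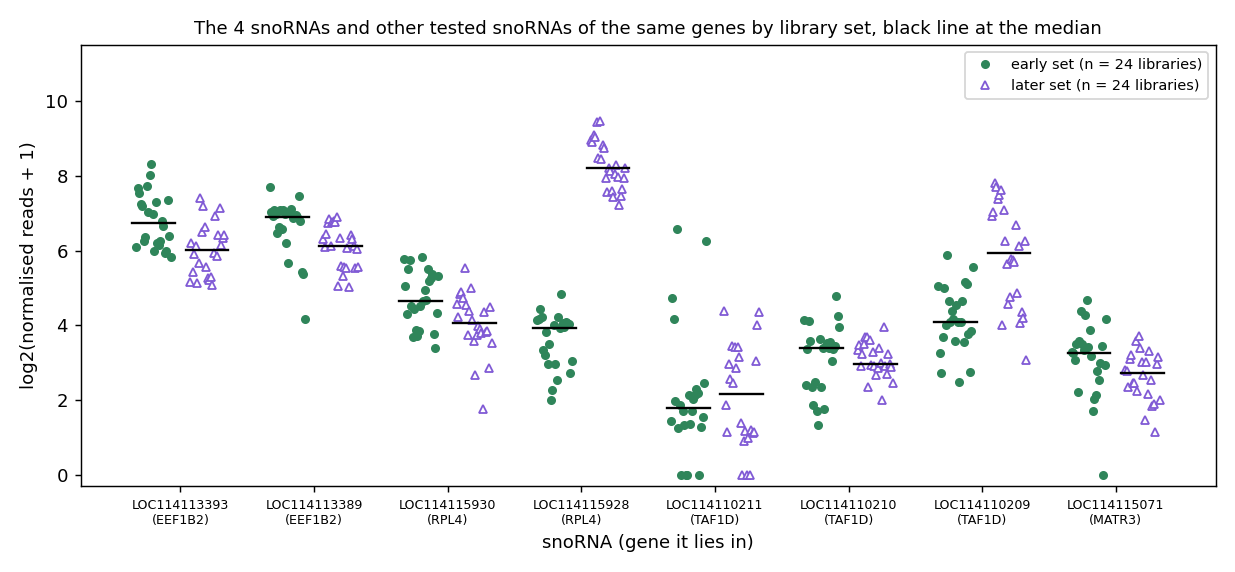
Levels of the 4 snoRNAs and of 4 other tested snoRNAs of the same genes, as log2(normalised reads + 1), in the 24 early and 24 later libraries of both cohorts, with black lines at the medians. LOC114115928 of RPL4 separated the sets completely, at 3.04 to 27.6 normalised reads in early and 149 to 706 in later libraries, while LOC114115930 of the same gene was on average lower in the later set.

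Other snoRNAs of the same genes behaved differently between sets. RPL4 holds 4 listed snoRNAs, and LOC114115928 had 3.04 to 27.6 normalised reads in early and 149 to 309 in later libraries of the T cohort, and 9.12 to 20.6 and 243 to 706 in the BPA cohort. Later exceeded early libraries in 8 of 8 groups, by 4.44 on average, against -0.93 for LOC114115930. LOC114110209 of TAF1D was higher in the later set in 7 of 8 groups (1.35), and LOC114110210 in 3 of 8 (-0.14). The other listed snoRNA of EEF1B2, LOC114113389, was lower in later libraries in 6 of 8 groups (-0.51). MATR3 holds no other listed snoRNA.

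LOC114113389 did not share the depot order of LOC114113393. It had 114 ± 21.7 in subcutaneous, 98.5 ± 48.6 in perirenal, 57.5 ± 19 in visceral and 53.0 ± 18.4 in epicardial fat of T cohort controls. In BPA cohort sheep the visceral minus subcutaneous difference was -0.35 in controls (limma adjusted p = 0.608) and 0.46 in BPA sheep (adjusted p = 0.685). In visceral fat of prenatal T sheep it fell 1.23 below the other depots (SE 0.35, adjusted p = 0.0356), the 1 call among 4 other snoRNAs of these genes in a contrast that called 6.36% of snoRNAs. Over libraries the r between the 2 snoRNAs of EEF1B2 was 0.40 (T cohort, n = 32) and 0.30 (BPA cohort, n = 16).

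The snoRNAs most like each of the 4 were found by Pearson r of the log2 level over the 32 libraries of the T cohort, among 172 others, with r over the 16 libraries of the BPA cohort beside it. For LOC114113393 they were LOC114111821, inside DKC1, the pseudouridine synthase dyskerin (0.81, BPA cohort 0.74), LOC114111313 inside UBAP2L (0.74, 0.70) and LOC114117058 (0.66, 0.62). LOC114115930 was most like LOC114117101, inside the translation initiation factor gene EIF4A1 (0.72, 0.80), and LOC114111244 inside RPL5 (0.69, 0.60). For LOC114110211 the closest were LOC114114248 (0.72, 0.48), LOC114118581 inside RPL27A (0.70, 0.71) and LOC114114247 inside KANSL2 (0.68, 0.77). LOC114115071 had LOC114113388, inside the nucleolin gene NCL (0.73, -0.50), LOC114110701 inside RPS2 (0.66, -0.03) and LOC114110520 (0.63, -0.26). The partners of LOC114115071 did not keep a positive r in the BPA cohort, while those of the other 3 did. The libraries share depot, sheep, library set and depth, so these r are descriptions.

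A wider list held 77 snoRNAs inside genes of ribosomal proteins and translation factors, LOC114113393 and LOC114115930 among them, of which 43 (T cohort) and 52 (BPA cohort) were tested. Each depot of prenatal T sheep was compared with their other 3 depots. Of the 43, 1 was called higher and 0 lower in subcutaneous fat, and 2 higher and 2 lower in visceral fat. In epicardial fat 0 were higher and 1 lower, and in perirenal fat 0 were called. Over all 173 snoRNAs the calls were 4 higher and 7 lower, 7 and 4, 3 and 2, and 5 and 0 in the same order. The list's median log2 difference from the other depots was 0.31 in visceral fat, against 0.09 over all snoRNAs. In subcutaneous fat it was -0.05 against -0.26. Neither treatment changed a snoRNA of the list at the threshold in any depot. In visceral fat the prenatal T median was 0.21 for the list and 0.10 for all, and the BPA median 0.01 and -0.02.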

How the data were processed

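The 48 fat samples were sequenced as small RNA. The submitters' processing notes list cutadapt 3.2, STAR 2.6.0c and featureCounts 1.6.1. No genome build is named in them or in the labels. Such counting can split reads between similar snoRNA copies. The deposited snoRNA values are a signal, reads divided by a size factor that the authors set per depot. Whole reads were recovered from 100% of values (tolerance 1e-05) and rescaled per cohort by the median ratio over snoRNAs above 0 in all its libraries (132 in the T cohort, 198 in the BPA cohort).

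The 4 snoRNAs and all lists were chosen with earlier results of these data known. Those named beyond the 4 are other snoRNAs of their host genes, the 3 most correlated with each, and a list inside genes of translation. Of the most correlated, 1 is not reported here. SnoRNAs with a mean of at least 5 were fitted as log2(value + 1) with limma 3.58.1 (R 4.3.3), trend, 1 fit of group means per cohort, Benjamini-Hochberg over all tested, threshold 0.05. Alternatives were other scalings, pseudocounts 0.5 and 5, no filter, sheep as a block, library set as a term, compared groups alone, edgeR 4.0.16 and DESeq2 1.42.0 on recovered reads, and leaving out each sheep. The script was tested on simulated data. Exact permutation tests over sheep were two-sided and are not adjusted. Intervals on summed reads are conditional binomial, leave out the spread between sheep and are not used as tests.

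Depots of a cohort come from the same sheep. Libraries of 1 sheep deviated from their groups together, with a median r of 0.175 (27 of 48 pairs over 0.1) against -0.058 between different sheep in the T cohort, and 0.239 (6 of 8) against -0.186 in the BPA cohort. Over 72 pairs of replicate libraries the chi-square per degree of freedom was 1.47 to 32.1, so none was a repeat of another. Gene positions were taken from a RefSeq table (assembly ARS-UI_Ramb_v3.0), which matched 621 of 694 snoRNAs; snoRNA sequences were not used here, and coordinates are not printed because the builds could not be compared.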

Additional observations from a re-analysis of the deposited data

Results flagged for a closer look

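LOC114110211, in TAF1D, in visceral fat of control sheep 928 of the BPA cohort stood at 94.9 normalised reads. The other 3 controls were at 2.98, 7.84 and 16.9, so that this library lay farther from its group than Dixon's 95% limit for 4 samples. It was the only one among 48 groups of 4 values, where chance flags about 1 in 20. Without sheep 928 the group mean was 9.23 ± 7.05 (SD, n = 3) in place of 30.6 ± 43.2.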

How the results depend on the processing

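Low read counts of LOC114110211 and LOC114115071, 4 sheep per group and library sets that are uneven over groups limit these comparisons. Early or later sets alone and alternatives of the sheep-wise test were chosen after seeing the data. Of the values for which a test was computed under alternatives (LOC114113393, LOC114115930 and the BPA cohort, also where the text gives no test), 355 kept direction and side of the threshold, 33 changed sign and 15 passed the threshold only there. Of the described values 199 stayed within the spread between sheep and 9 did not. The cause of the changes below was not tested. Calls for a depot of prenatal T sheep compare it with their other 3 depots.

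In prenatal T sheep the number of snoRNAs called for subcutaneous fat (11) was 21 on deposited values, 7 as CPM of 4 classes, 19 with library set as a term, 18 by edgeR, 20 by DESeq2 and 29 in the early set. For visceral fat (11) it was 58 as CPM of 4 classes, 6 for the compared groups alone, 24 by edgeR, 28 by DESeq2, 35 in the early set and 1 to 9 with a sheep left out. For epicardial fat (5) it was 13 on deposited values, 9 as CPM of snoRNA reads, 0 as CPM of 4 classes, 11 without a filter, 8 with sheep as replicate block, 11 for the compared groups alone, 8 by edgeR, 17 by DESeq2, 0 in the early set and 1 to 7 with a sheep left out. For perirenal fat (5) it was 8 as CPM of snoRNA reads, 16 as CPM of 4 classes, 1 with pseudocount 0.5, 1 without a filter, 13 with the block, 2 with the set term, 0 for the compared groups alone, 13 by edgeR, 17 by DESeq2, 10 in the early set and 0 to 22 with a sheep left out.

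The prenatal T effect (0) had 1 call as CPM of 4 classes, 1 with pseudocount 5, 5 without a filter, 14 with the set term, 13 by edgeR, 20 by DESeq2 and 0 to 4 with a sheep left out in visceral fat, and 1 without a filter in epicardial fat. Visceral against subcutaneous fat (0) had 73 calls on deposited values, 5 as CPM of snoRNA reads, 20 with the block, 1 with the set term, 2 for the compared groups alone, 35 by DESeq2 and 0 to 33 with a sheep left out in controls of the BPA cohort. In BPA sheep it had 22 on deposited values, 2 with the set term, 1 by DESeq2 and 11 in the later set. The replicate block moved LOC114113393 past the threshold in 2 comparisons (adjusted p = 0.0364 and 0.045 by limma) and changed no other call of the 4 snoRNAs.

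As CPM of 4 classes the difference of LOC114113393 was -0.10 for perirenal fat of prenatal T sheep, -0.35 for prenatal T in epicardial fat and 0.0021 for BPA averaged over depots, and that of LOC114115071 between visceral and subcutaneous fat -0.082 in controls, -0.18 in BPA sheep and -0.13 within sheep. On deposited values LOC114115071 was at -0.45 in controls, -0.26 in BPA sheep and -0.36 within sheep, LOC114115930 at -0.91 within sheep and LOC114113393 at 0.029 for averaged BPA. As CPM of snoRNA reads LOC114115930 was at 0.094 in controls, 0.021 in BPA sheep and 0.057 within sheep, LOC114113393 at 0.032 for averaged prenatal T, and LOC114115071 at 0.52 within sheep and -0.069 for averaged BPA. EdgeR gave 0.14 for LOC114115930 in BPA sheep, and pseudocount 5 gave 0.56 for averaged prenatal T of LOC114115071. With a sheep left out, LOC114115930 ranged from -0.70 to 0.19 between depots in controls (positive without 908), from -0.39 to 0.16 in BPA sheep (positive without 910 or 977) and from -0.35 to 0.031 within sheep, and LOC114115071 from -0.077 (without 924) to 0.36 in controls. Averaged over depots, LOC114113393 ranged from -0.19 to 0.093 for prenatal T and from -0.19 to 0.14 for BPA, LOC114110211 from -0.39 to 0.31 for BPA and LOC114115071 from -0.17 to 0.26. LOC114110211 had no T cohort value on deposited values, as CPM of snoRNA reads or without sheep 48 or 255.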
